A study of Mus musculus with 13 samples.

Results

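The genes described here are the insulin-like growth factors, their receptors and their binding proteins: the ligands Igf1 and Igf2, the receptors Igf1r, Insr and Igf2r, and the binding proteins Igfbp2, Igfbp3, Igfbp4, Igfbp5 and Igfbp6. They were chosen by symbol and matched through their Ensembl identifiers, which found all 10 among the 16382 genes of the tables. RNA-seq was performed on wild-type C2C12 myotubes, the multinucleated cells that form when a mouse myoblast line fuses in low serum medium. The paper names as a limitation that unfused myoblasts remain in these cultures, so the RNA came from both. On day 8 of differentiation 6 wells received 10 µM palmitoylethanolamide (PEA), an endogenous lipid mediator of the N-acylethanolamine class, and 6 received its vehicle, DMSO (CON), and RNA was taken after 24 h. Wells were run in duplicate in each repeat of the experiment, and the paper counts the duplicates as technical replicates. The 6 libraries of a treatment are therefore not 6 independent experiments. Which libraries share a repeat cannot be read from the labels. The p-values and intervals thus measure the spread between these libraries, which is in part technical. Values are normalized counts, the estimated count of a gene divided by 1 factor per library, unless TPM is named.

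IGF1 and IGF2 are secreted growth factors that signal through the tyrosine kinase IGF1R and, with the insulin receptor, through hybrid receptors. IGF2R, the cation-independent mannose 6-phosphate receptor, takes up IGF2 for breakdown in lysosomes, and the secreted binding proteins hold the ligands in the medium and the matrix and thereby limit or prolong their access to receptors. Differentiating C2C12 cells make IGF2 as an autocrine signal for myogenesis and secrete IGFBP5.

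The Igfbp2 and Igfbp5 genes are neighbours on mouse chromosome 1 and lie tail to tail, with 5456 bases between them in GRCm39. Their promoter windows are printed because Igfbp2 was the only member called between the treatments while Igfbp5, beside it, had a fold change close to 0. The sequences are from RefSeq on GRCm38.p6, run 5′ to 3′ on the gene's strand, and hold 250 bases before and 50 bases from the annotated start. Capitals mark E-boxes, the letters CANNTG on either strand, which basic helix-loop-helix factors can bind. The windows are chr1:72824230-72824529 and chr1:72825137-72825436 for Igfbp2, both on the plus strand, and chr1:72874816-72875115 for Igfbp5, on the minus strand.
Igfbp2 upstream window: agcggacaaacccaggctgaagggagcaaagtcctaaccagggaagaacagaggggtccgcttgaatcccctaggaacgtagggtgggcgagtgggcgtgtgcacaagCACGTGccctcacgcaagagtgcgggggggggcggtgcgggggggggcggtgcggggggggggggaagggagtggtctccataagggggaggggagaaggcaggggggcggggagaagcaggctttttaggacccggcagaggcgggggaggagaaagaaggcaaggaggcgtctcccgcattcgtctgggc
Igfbp2 downstream window: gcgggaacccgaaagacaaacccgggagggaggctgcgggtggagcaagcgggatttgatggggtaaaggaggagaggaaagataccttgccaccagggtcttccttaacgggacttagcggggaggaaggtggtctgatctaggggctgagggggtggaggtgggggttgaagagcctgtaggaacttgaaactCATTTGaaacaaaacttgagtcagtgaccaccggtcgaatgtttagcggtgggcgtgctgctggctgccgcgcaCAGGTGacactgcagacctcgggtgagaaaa
Igfbp5 window: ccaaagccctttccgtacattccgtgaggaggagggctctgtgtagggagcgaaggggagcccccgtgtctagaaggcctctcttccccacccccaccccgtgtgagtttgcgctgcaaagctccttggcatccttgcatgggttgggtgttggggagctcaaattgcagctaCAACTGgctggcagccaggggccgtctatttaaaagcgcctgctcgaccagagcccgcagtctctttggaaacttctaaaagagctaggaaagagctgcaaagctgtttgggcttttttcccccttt
The upstream Igfbp2 window held 1 E-box at base 109 of the window and 3 GC boxes (GGGCGG on either strand), at a GC content of 67.0%. The downstream Igfbp2 window held E-boxes at bases 196 and 270 and no GC box, and the Igfbp5 window held 1 E-box at base 174 and no GC box. An E-box was found in 72.3% and a GC box in 35.7% of all 32851 windows of this length, so either motif is common. None of the 3 windows held TATAAA, which was found in 13.6% of all windows and in those of Igfbp4 and Igfbp6. RefSeq windows were matched for 9 of the 10 members, all but Insr.

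All 10 members passed the filter on low counts, with between 158 and 29523 estimated counts in a library. For PEA against CON, edgeR was fitted over 13142 genes (quasi-likelihood test), and a gene was called at a Benjamini-Hochberg adjusted p below 0.05. Of the 10 members 1 was called, Igfbp2, which was higher in PEA, and 0 were called lower. Among all genes tested, 11.0% were called, 6.31% higher and 4.74% lower, so the share of members called was near the background. Members with an unadjusted p below 0.05 numbered 2, Igfbp2 and Igf1r, where the share over all genes was 27.4%. DESeq2 called 0 members and 14.5% of its 13202 genes. Fold changes of 7 members lay within 0.1 of 0 on the log2 scale, and the median over the members was -0.012, beside 0.0051 over all genes tested. No member's values separated the treatments without overlap, which 4.34% of all genes tested did.

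**Figure D1:**
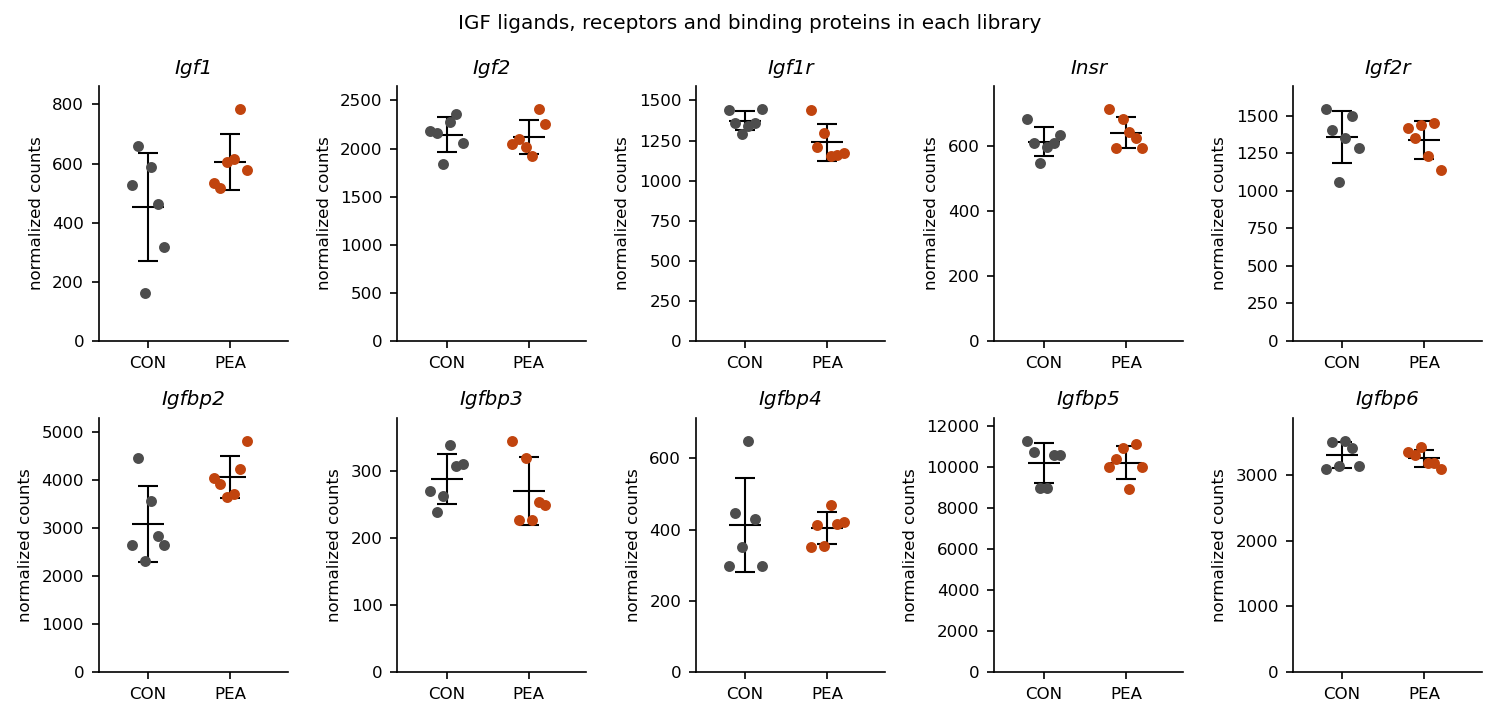
Normalized counts of the 10 members, with 1 point per library (6 CON in grey, 6 PEA in red), a bar for the mean and whiskers of 1 SD, each panel with its own linear axis from 0. The treatments overlapped for every member, Igfbp2 in PEA lay between 3655 and 4817 above 5 of the 6 CON libraries, and Igf1 in CON spread from 162 to 659.

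The depth of a library was 12354845 to 50397444 estimated counts (median 18420606). All 18 myotube markers fixed for the check of the cell type passed the filter, and 4 of them were called lower in PEA and 0 higher, beside 4.74% and 6.31% of all genes tested. The median log2 fold change of this list was -0.22, and that of Actn2, the sarcomeric alpha-actinin, was -1.08. The summed level of the myotube markers ranged from 87300.1 to 139311 in CON and from 89860.7 to 107968 in PEA. All 5 proliferation markers were called higher, and their sum ranged from 2250.2 to 5718 in CON and from 5855 to 6923 in PEA. Of the 10 myoblast and reserve cell markers 1 was called higher and 2 lower, and of the 7 fibroblast markers tested, 2 were called higher, Col1a2 and Dcn, to be read beside the same shares. Of the 4 macrophage markers in the tables, Ptprc, Csf1r and Itgam were below the filter and Cd68 passed it, at 96.4 ± 17.7 in PEA and an adjusted p of 0.875. All 4 endothelial markers were below the filter, and of the 2 adipocyte markers tested none was called by edgeR or DESeq2 or had an unadjusted p below 0.05. In bulk RNA, fewer cells of a type and less RNA per cell cannot be told apart.

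The 2 ligands differed in level and in spread. Igf2 (ENSMUSG00000048583, chromosome 7, 142204503 to 142220694, GRCm39), the fetal growth factor expressed from the paternal allele, had a lowest, median and highest value of 1840.2, 2173 and 2355 in CON and 1925, 2071 and 2409 in PEA. The treatments overlapped over nearly their whole range. Mean Igf2 was 2146 ± 181 in CON and 2123 ± 177 in PEA (SD over 6 libraries each). Its log2 fold change was -0.012 with a 95% interval from -0.15 to 0.12, at an adjusted p of 0.929. Igf2 shares 3599 exon bases with Gm49394 on its own strand. On the other strand it shares 347 with Gm33148 and 254 with Igf2os. Whether strand was used in counting is not given in the sources used here. Igf2os itself was below the filter, with 0 to 7 estimated counts in a library.

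Igf1 (ENSMUSG00000020053, chromosome 10, 87693642 to 87772904), the growth factor that also mediates growth hormone action, had a lowest, median and highest value of 162, 496 and 659 in CON and 519, 592 and 784 in PEA. The lowest CON libraries were replicate 3 at 162 and replicate 6 at 318, while 3 of the 6 CON libraries lay within the PEA range. Mean Igf1 was 453 ± 184 in CON and 606 ± 95.4 in PEA. The log2 fold change was 0.42 with an SE of 0.22 and a 95% interval from -0.054 to 0.89, and Igf1 was not called, at an adjusted p of 0.240. The coefficient of variation of Igf1 was 40.5% in CON and 15.8% in PEA. Without CON replicate 3 the log2 fold change was 0.24, at an adjusted p of 0.309.

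Igf1r (ENSMUSG00000005533, chromosome 7, 67601518 to 67883416), the tyrosine kinase that carries most IGF signalling, had a lowest, median and highest value of 1291, 1359 and 1446 in CON and 1153, 1189 and 1441 in PEA. Of the PEA libraries 4 lay below every CON library, and replicate 1, at 1441, lay near the top of the CON range. Mean Igf1r was 1372.5 ± 59.3 in CON and 1239 ± 113 in PEA. The change was -0.15 on the log2 scale with an SE of 0.057 and a 95% interval from -0.27 to -0.026, and at an adjusted p of 0.105 Igf1r was not called. Without PEA replicate 1 it was called lower, at a log2 fold change of -0.19 and an adjusted p of 0.0244. Igf1r shares 1247 exon bases with Pgpep1l on the other strand, so reads from the pair may not be separated.

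Insr (ENSMUSG00000005534, chromosome 8, 3172061 to 3329647), the insulin receptor, had a lowest, median and highest value of 547, 609.6 and 684 in CON and 594, 633 and 714 in PEA. The treatments overlapped, and PEA replicates 2 and 6 lay below 5 of the 6 CON libraries. For Insr the log2 fold change was 0.063 with a 95% interval from -0.073 to 0.20, at an adjusted p of 0.571. Igf2r (ENSMUSG00000023830, chromosome 17, 12901293 to 12988614), expressed from the maternal allele in most mouse tissues, had a lowest, median and highest value of 1057, 1378 and 1542 in CON and 1138, 1386 and 1451 in PEA. The treatments overlapped, and both held libraries near the bottom and the top of the common range. For Igf2r the log2 fold change was -0.019 with a 95% interval from -0.19 to 0.16, at an adjusted p of 0.913. Airn, the antisense RNA that silences the paternal Igf2r allele, shares no exon base with it and averaged 31.0 ± 2.72 in CON and 27.8 ± 12.2 in PEA, at an adjusted p of 0.723.

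Igfbp2 (ENSMUSG00000039323, chromosome 1, 72863606 to 72891634), a binding protein that prefers IGF2 and can bind integrins, had a lowest, median and highest value of 2315, 2748 and 4449.6 in CON and 3655, 3973 and 4817 in PEA. CON replicate 2, at 4449.6, lay within the PEA range, and the other 5 CON libraries, the highest of them replicate 4 at 3562, lay below all 6 PEA libraries. Mean Igfbp2 was 3077 ± 791 in CON and 4060.2 ± 428 in PEA. It rose 1.32-fold, a log2 fold change of 0.40 with an SE of 0.12 and a 95% interval from 0.14 to 0.67, at an adjusted p of 0.0470. This call was close to the threshold. DESeq2 gave an adjusted p of 0.0809 and the call was kept in 2 of the 12 fits with 1 library left out. Those were the fits without CON replicate 2, at a log2 fold change of 0.54 and an adjusted p of 0.00105, and without CON replicate 4, at 0.0377. In the other 10 fits it was lost, up to an adjusted p of 0.111 without PEA replicate 6, and the log2 fold change stayed between 0.33 and 0.54 in all 12. CON replicate 2 also had the highest summed proliferation markers of the CON libraries, 5718 against at most 3664 in the others, and the part of that difference in the Igfbp2 values was not tested.

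**Figure D2:**
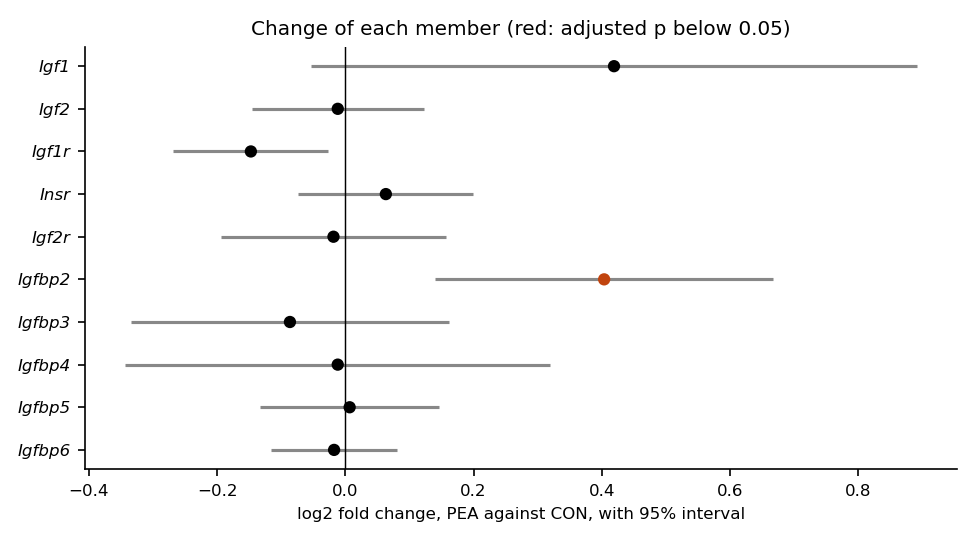
Log2 fold change of each member, PEA against CON, as a point with its 95% interval from edgeR, in red where the adjusted p was below 0.05. Only the interval of Igfbp2, from 0.14 to 0.67, belongs to a called gene, while that of Igf1 is the widest, from -0.054 to 0.89, and that of Igfbp6 the narrowest, from -0.12 to 0.080.

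The genes whose log2 CPM followed Igfbp2 most closely over the 12 libraries, after subtraction of each treatment's mean, were Ildr2, Foxm1 and Cdca8, of 10154 genes compared. Pearson's r with Igfbp2 was 0.944 for Ildr2, 0.912 for Foxm1, a transcription factor of the G2 and M phases, and 0.912 for Cdca8, a subunit of the chromosomal passenger complex. Spearman's rho was 0.881, 0.846 and 0.853. Without CON replicates 2 and 3, the libraries farthest from the median of Igfbp2, r was 0.874 for Ildr2, 0.729 for Foxm1 and 0.794 for Cdca8. For the other members, r with the closest gene ran from 0.885 for Igfbp6 to 0.982 for Igf1. The libraries share depth and normalization, and these values describe likeness in these 12 libraries only.

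The other binding proteins gave no call. Igfbp5 (ENSMUSG00000026185, chromosome 1, 72897091 to 72914043), the matrix-bound binding protein that muscle cells secrete, had a lowest, median and highest value of 8977, 10599 and 11304 in CON and 8939, 10197 and 11119 in PEA. The ranges of the treatments were almost the same. Its log2 fold change was 0.0067 with a 95% interval from -0.13 to 0.15, at an adjusted p of 0.962. Igfbp6 (ENSMUSG00000023046, chromosome 15, 102052697 to 102057953), which binds IGF2 far more tightly than IGF1, had a lowest, median and highest value of 3088, 3268 and 3515 in CON and 3079.6, 3236 and 3421 in PEA. Its coefficient of variation was 6.02% in CON and 3.85% in PEA, the lowest of the members in PEA and the lowest but for Igf1r in CON. Its log2 fold change was -0.018 with a 95% interval from -0.12 to 0.080, at an adjusted p of 0.842.

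Igfbp3 (ENSMUSG00000020427, chromosome 11, 7156086 to 7164179), the main carrier of IGFs in serum, had a lowest, median and highest value of 238, 288 and 338 in CON and 226, 251 and 345 in PEA. The treatments overlapped, and PEA libraries held both the lowest and the highest value of all. Its log2 fold change was -0.086 with a 95% interval from -0.33 to 0.16, at an adjusted p of 0.679. Igfbp4 (ENSMUSG00000017493, chromosome 11, 98932064 to 98945218), an inhibitory binding protein that the protease PAPP-A cleaves, had a lowest, median and highest value of 298, 391 and 649 in CON and 351, 416 and 468 in PEA. CON replicate 4 held the value of 649, and all PEA libraries lay inside the CON range. For Igfbp4 the log2 fold change was -0.012 with a 95% interval from -0.34 to 0.32, at an adjusted p of 0.971, and it was 0.16 without CON replicate 4.

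**Figure D3:**
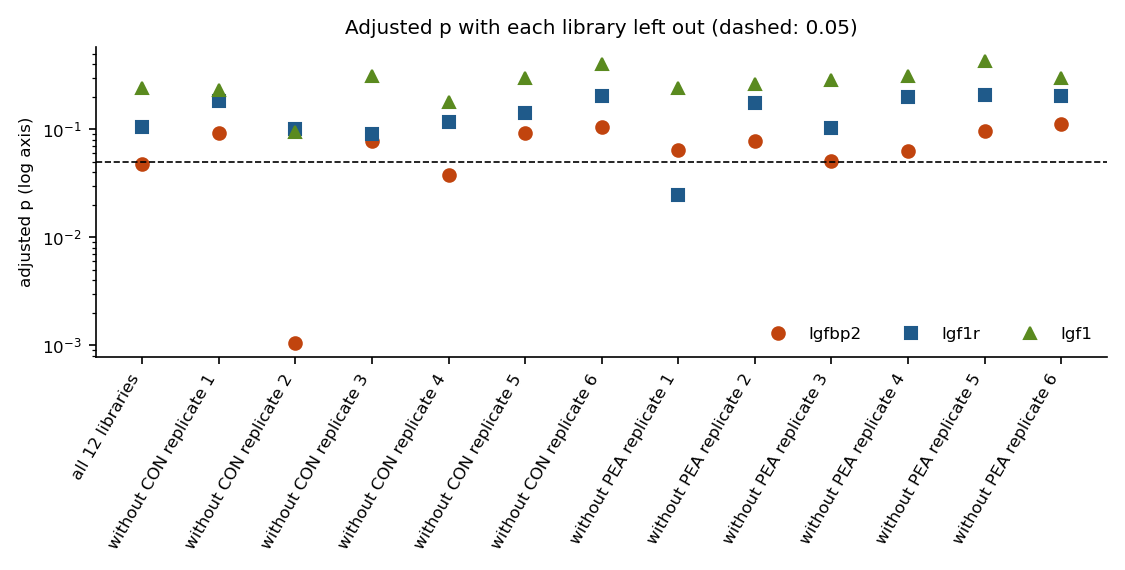
Adjusted p from edgeR (log axis) for Igfbp2, Igf1r and Igf1 with all 12 libraries and with each library left out in turn, the dashed line marking 0.05. Igfbp2 fell below the line with all libraries and without CON replicate 2 or 4, Igf1r only without PEA replicate 1, and Igf1 in none of these fits.

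To compare levels between genes, estimated counts were divided by the length of the union of each gene's exons and scaled to the same total in every library (TPM). The binding proteins Igfbp6, Igfbp5 and Igfbp2 stood highest, and the receptor Insr and the ligand Igf1 were lowest in CON. In CON the order was Igfbp6 at 381 ± 24.4 TPM, Igfbp5 at 272 ± 30.3, Igfbp2 at 237 ± 62.1, Igf2 at 55.7 ± 5.33, Igf2r at 23.2 ± 3.33, Igfbp4 at 14.9 ± 4.70, Igfbp3 at 12.9 ± 1.60, Igf1r at 11.1 ± 0.601, Insr at 7.12 ± 0.624 and Igf1 at 7.11 ± 2.92. The ranges of neighbours in this order overlapped in CON for Igfbp5 with Igfbp2, Igf2r with Igfbp4, Igfbp4 with Igfbp3, Igfbp3 with Igf1r and Insr with Igf1. In PEA, Igfbp2 stood at 331 ± 38.2 TPM and Igfbp5 at 288 ± 24.0, again with overlapping ranges. Igf1 at 10.0 ± 1.63 lay above Insr at 7.87 ± 0.406 in PEA. Their ranges only just missed each other, with the lowest Igf1 library at 8.49 TPM and the highest Insr library at 8.46. Over all 12 libraries Igfbp6 was at rank 358, Igfbp2 at 476, Igfbp5 at 479 and Igf2 at 2456 of 16343 genes by TPM. With the longest transcript in place of the exon union, the order of Igfbp2 and Igfbp5 turned in CON, to 262 and 216 TPM, and Igfbp2 passed Igfbp6 in PEA, at 364 and 357 TPM. Igf1r, at 13.9 TPM in CON and 13.2 in PEA, then passed Igfbp3, at 10.3 and 10.1, and in CON also Igfbp4, at 13.7. In PEA Igf1 passed Igfbp3, at 10.7, and Insr, at 9.16, stood closer to Igf1.

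**Figure D4:**
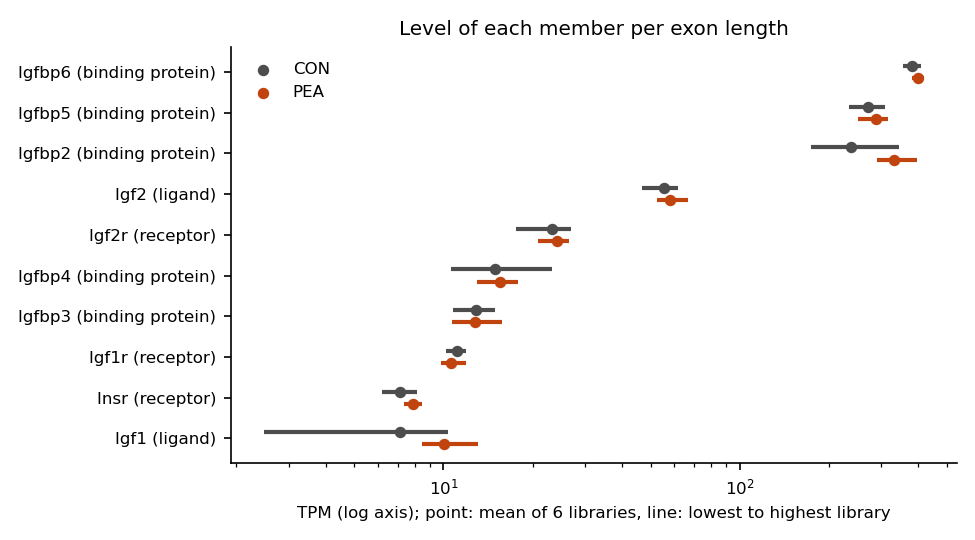
TPM of each member on a log axis, CON in grey and PEA in red, with the mean of 6 libraries as a point and a line from the lowest to the highest library. Igfbp6, Igfbp5 and Igfbp2 lie at or above 173.8 TPM in every library, Igf2 lies between them and the receptors, and the CON line of Igf1 is the longest on this axis.

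By role, Igf2 made up 89.0% ± 3.76 of the summed ligand TPM in CON and 85.4% ± 1.50 in PEA. Of the summed receptor TPM, Igf2r held 55.8% in CON and 56.6% in PEA, Igf1r 27.0% and 24.9%, and Insr 17.3% and 18.5%. With the longest transcript in place of the exon union, CON TPM was 19.3 for Igf2r, 13.9 for Igf1r and 8.33 for Insr. Igf2r then no longer held most of the receptor sum in CON. Of the summed binding protein TPM, Igfbp6 held 41.7% in CON and 38.1% in PEA, Igfbp5 29.7% and 27.6%, and Igfbp2 25.5% and 31.6%. Binding protein transcripts outnumbered ligand transcripts in every library, with a ratio of summed TPM of 14.7 ± 1.11 in CON and 15.4 ± 0.950 in PEA. The ranges of that ratio, from 13.5 to 16.0 in CON and from 13.6 to 16.2 in PEA, overlapped almost wholly. All these shares and this ratio rest on the exon union and change with the length used. Of the 45 ratios of normalized counts between members 1 separated the treatments without overlap, which is 2.22%, beside 3.99% of all pairs of genes tested. It was Igf1r over Insr, named after its values were seen, at 2.24 ± 0.0835 in CON, from 2.10 to 2.36, and 1.93 ± 0.0943 in PEA, from 1.79 to 2.03.

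Igfbp7, a related secreted protein that binds IGFs weakly, moved in the same direction as Igfbp2. Its lowest, median and highest values were 2743, 3471 and 5142 in CON and 4388, 5649 and 6387 in PEA, with CON replicates 2 and 4 inside the PEA range. The log2 fold change of Igfbp7 was 0.55 with an SE of 0.13, at an adjusted p of 0.0164, and the call held in all 12 fits with 1 library left out. Ins2 and Igfals, which encode insulin and the acid-labile subunit of the serum IGF complex, were below the filter, with at most 9 and 12 estimated counts in a library.

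Proteases that cleave the binding proteins and inhibitors of those proteases formed a list of 7 genes, of which 2 were called higher and 1 lower, 42.9% beside 11.0% over all genes tested. Stc2, an inhibitor of PAPP-A, rose from 79.1 ± 17.6 to 121 ± 26.5, a log2 fold change of 0.62 with an adjusted p of 0.0282. Adam12, a protease of IGFBP3 and IGFBP5, rose from 130.4 ± 35.0 to 197 ± 26.8, a log2 fold change of 0.58 with an adjusted p of 0.0294. Mmp2, a matrix gelatinase, fell from 18697 ± 1029 to 16645 ± 606, a log2 fold change of -0.17 with an adjusted p of 0.0294. With 1 library left out, Stc2 was called in 7 of 12 fits, Adam12 in 6 and Mmp2 in 5, with adjusted p up to 0.0761 for Stc2 without PEA replicate 5, 0.0693 for Adam12 without PEA replicate 6 and 0.0689 for Mmp2 without PEA replicate 5. Pappa, which encodes PAPP-A, averaged 53.9 ± 23.4 in CON and 81.0 ± 15.4 in PEA, at an adjusted p of 0.124, and was called only without CON replicate 2, at 0.0159. None of the 3 Igf2 mRNA binding proteins was called by edgeR or DESeq2 or had an unadjusted p below 0.05.

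Downstream, a list of 53 genes of IGF and insulin signalling had 52 tested members, with 2 called higher, 1 lower and 49 not called. The 5.77% called lay below the 11.0% over all genes tested, and the median log2 fold change was -0.011, beside 0.0051 over all genes. Grb14, an adaptor that binds the active insulin receptor and inhibits its kinase, rose from 97.0 ± 24.5 to 170.5 ± 22.7, a log2 fold change of 0.82 with an SE of 0.15 and an adjusted p of 0.00395. Its call held in all 12 fits with 1 library left out. Trib3, a pseudokinase that binds AKT and is induced by the integrated stress response, rose from 451 ± 272 to 987 ± 188, a log2 fold change of 1.13 with an SE of 0.26 and an adjusted p of 0.0125, again called in all 12 fits. The spread of Trib3 in CON came mainly from replicate 2, at 967. Hras, a small GTPase of the MAPK branch, fell from 1469 ± 64.8 to 1333 ± 38.5, a log2 fold change of -0.14 with an adjusted p of 0.0488, and was called in 3 of 12 fits with 1 library left out, with adjusted p up to 0.112 without PEA replicate 6. Without a filter on low counts the adjusted p of Hras was 0.0693. Akt2, named after its values were seen, lay between 3394 and 3709.7 in CON and between 3175 and 3359 in PEA, without overlap, yet its adjusted p was 0.0800 by edgeR and 0.0358 by DESeq2.

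**Figure D5:**
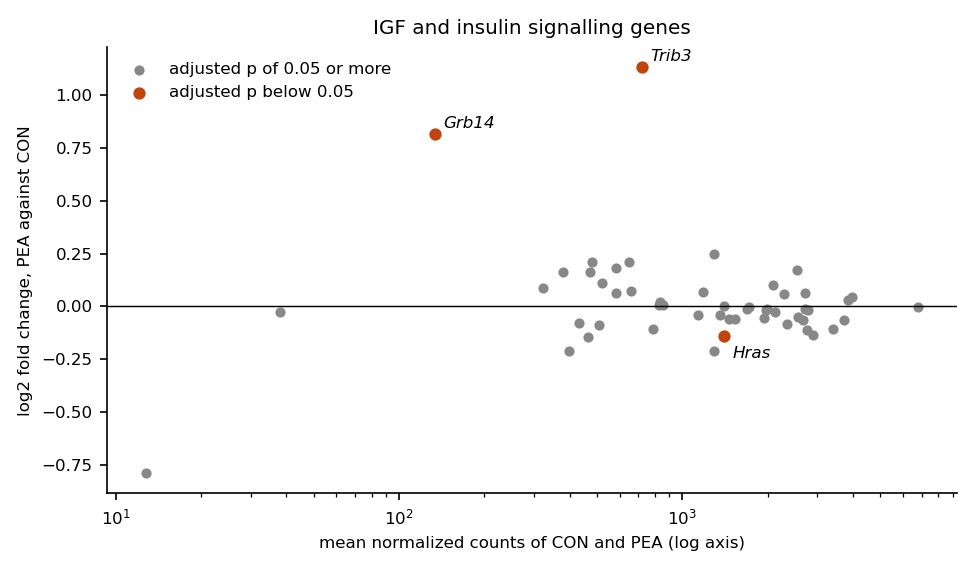
Log2 fold change, PEA against CON, of the 52 tested genes of IGF and insulin signalling against their mean normalized count (log axis), in red where the adjusted p from edgeR was below 0.05. Trib3 at 1.13 and Grb14 at 0.82 stand above the other genes, and Hras at -0.14 lies among them.

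Another list held 11 genes linked to FOXO factors or to muscle atrophy. Of these, 0 were called by edgeR or DESeq2, beside 11.0% and 14.5% of all genes tested. An unadjusted p below 0.05 was found for 2 of them, beside 27.4% of all genes tested. Fbxo32, the ubiquitin ligase atrogin-1, averaged 1306 ± 44.9 in CON and 1376 ± 144 in PEA, and Trim63, the ligase MuRF1, 555 ± 81.5 and 499 ± 61.0, both named after their values were seen. Of 5 genes that restrain mTORC1 or AKT under stress, 2 were called higher, beside 6.31% of all genes tested: Trib3 and Sesn2, an inhibitor of mTORC1. Sesn2 rose from 1233 ± 223 to 1741 ± 240.3, a log2 fold change of 0.50 with an adjusted p of 0.00961, and was called in all 12 fits with 1 library left out.

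H19, the non-coding RNA that shares an imprinted domain with Igf2 and is expressed from the maternal allele, had a lowest, median and highest value of 33841, 44479 and 49023.5 in CON and 29552, 36369 and 40257 in PEA. The treatments overlapped, with CON replicates 3 and 6 inside the PEA range. Its log2 fold change was -0.28 with an SE of 0.088, and with an adjusted p of 0.0501 it was not called, while edgeR with median-of-ratios size factors gave 0.0467, edgeR without a filter on low counts 0.04997 and DESeq2 0.0123. With 1 library left out it was called in 3 of 12 fits, with adjusted p from 0.0102 without CON replicate 3 to 0.110 without PEA replicate 4. Igf2, at -0.012 on the same scale, had an interval from -0.15 to 0.12, and the difference between the pair was not tested. Of the 9 tested genes listed as imprinted in mouse, 1 was called, 11.1% beside 11.0% over all genes tested. It was Dcn, a matrix proteoglycan that also stands in the fibroblast list, at a log2 fold change of 0.48 and an adjusted p of 0.0439, kept in 3 of 12 fits with 1 library left out, with adjusted p up to 0.0973 without CON replicate 6. With DESeq2 the adjusted p of Dcn was 0.0512. Alleles were not counted apart, so whether the listed genes were imprinted in these cells was not tested.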

How the data were processed

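Expression was measured by poly(A) RNA-seq in 12 libraries of C2C12 myotubes, 6 CON and 6 PEA, grouped by the treatment named in the labels. PEA replicate 2 and its top-up run are separate label entries, 13 in all, that share 1 set of values, and entered as 1 library. Per the study's methods and the submitters' processing notes, the authors removed low-quality reads, aligned the rest to mm39 with STAR 4.4.1d in Partek Flow, quantified Ensembl genes and filtered the counts. They deposited an estimated count per gene without normalization, and a linear signal, the same counts divided by 1 DESeq2 factor per library. Of the counts above 0, 30.8% were not whole at a tolerance of 0.01. The tables hold 16382 genes, and other genes were not analysed here. Symbols, positions and exon lengths came from GENCODE on GRCm39 for 16343 of them.

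Estimated counts were rounded, and PEA was compared with CON by edgeR 4.0.16 under R 4.3.3 (TMM, quasi-likelihood test, filterByExpr for low counts), with Benjamini-Hochberg adjustment over 13142 genes and a threshold of 0.05. Intervals cover the spread between libraries and counting error. The biological coefficient of variation was 0.106 and TMM factors lay between 0.988 and 1.02. Alternatives used DESeq2 1.42.0, limma 3.58.1 (voom, and a trend fit of the deposited normalized counts with pseudocounts of 1 and 5), other filters and scalings, unrounded counts, the replicate number as a block, a threshold of 0.01 and each library left out. Log2 CPM used a prior count of 2. Levels and shares are descriptions without a test. Tests were tested on simulated data. The simulated libraries were independent and had the same dispersion for every gene, so duplicate wells and noisier genes were not represented. Tables and figures were made with Python 3.11.15, pandas 2.3.3 and matplotlib 3.10.9.

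The members and the gene lists were chosen with earlier results of these data known. All members are named, and of every other list at most 3 genes called higher and 3 lower with the smallest p, H19, and genes that overlap a member. For a called member, the 3 genes with a mean log2 CPM of at least 3 and the highest correlation were named. Genes outside this rule are marked in the text, apart from Pappa, Ins2, Igfals, Cd68, Ptprc, Csf1r and Itgam, which were named as members of their lists after their values were seen.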

Additional observations from a re-analysis of the deposited data

Results flagged for a closer look

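Igf1 in PEA replicate 5 stood apart from the other PEA libraries. Its normalized count was 784, while the other 5 PEA libraries lay between 519 and 615, and the gap to the nearest of them was 0.638 of the group's whole range. The 20 groups of member values (10 genes in 2 treatments) were examined in this way, and chance alone marks about 1 in 20 groups.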

How the results depend on the processing

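The call of Igfbp2 depended on the setting. The count of members called higher was 1 and fell to 0 with DESeq2 and at an adjusted p below 0.01, and ranged from 0 to 1 with 1 library left out, while the count called lower was 0 and ranged from 0 to 1, Igf1r without PEA replicate 1. In the fits of all libraries the adjusted p lay between 0.0240 and 0.0809 for Igfbp2, 0.0818 and 0.130 for Igf1r, and 0.139 and 0.367 for Igf1. For the signalling list, the count called higher was 2, became 3 with the replicate block and 1 at an adjusted p below 0.01, and ranged from 2 to 4 with 1 library left out. The count called lower was 1, became 3 with DESeq2, 0 without a filter on low counts and 0 at an adjusted p below 0.01, and ranged from 0 to 3 with 1 library left out. The log2 fold change of Igfbp4, -0.012, changed sign with limma-voom (0.11), with the deposited normalized counts at a pseudocount of 1 (0.0191) or 5 (0.0185) and with the replicate block (0.0189). With 1 library left out it ranged from -0.0986 to 0.163, that of Igf2 from -0.0519 to 0.0154, Igf2r from -0.0812 to 0.0249, Igfbp5 from -0.0276 to 0.0431 and Igfbp6 from -0.0359 to 0.00180, and none of these was called. The causes were not tested. Same-numbered libraries did not deviate together (correlations from -0.083 to 0.065, and 0 of 12 libraries correlated best with its own number), so the numbers were not taken as pairs. With the replicate number as a block, the fit called 943 genes higher and 627 lower, against 829 and 623, and Igfbp2 had an adjusted p of 0.0240, Hras, no longer called, 0.0840, and H19, then called, 0.0471. Over all genes the counts were 987 and 928 with DESeq2, 282 and 123 at an adjusted p below 0.01, 1232 and 971 without CON replicate 2, and 492 and 286 without PEA replicate 6. Depth limits genes with low counts most: Grb14, Stc2, Adam12, Pappa and Airn had under 250 normalized counts in every library, and genes below the filter were not tested.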

Other observations

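Igf1, which was not called, had close companions among the other genes, chosen here after their values were seen. Over the 12 libraries, with each treatment's mean subtracted, Pearson's r of log2 CPM was 0.982 with Fndc1 and 0.966 with Deptor, which encodes an inhibitor of mTOR, and Spearman's rho was 0.965 and 0.881. Without CON replicates 3 and 2 the values of r were 0.940 and 0.860. These genes were the closest of 10154 compared. High values were not particular to Igf1: for the other members, r with the closest gene ran from 0.885 for Igfbp6 to 0.966 for Igf2r. Deptor was lowest in the library in which Igf1 was lowest, CON replicate 3, at 1756 normalized counts beside 2287 to 3184 in the other CON libraries.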
